A study of Mus musculus with 6 samples.

Results

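The MAPK phosphatase genes Dusp1, Dusp2, Dusp4, Dusp5, Dusp6 and Dusp7, the Sprouty genes Spry1, Spry2 and Spry4, and Spred1 were followed in endothelial cells (ECs) sorted from mouse kidney. These 10 genes were taken by name from the deposited table of 55401 genes. All 10 were found and all 10 were among the 18438 genes that had enough counts to be tested. The members were chosen by their fold changes between the genotypes in these same libraries, with Dusp5 set against the rest, so that their differences between the groups are given as a description.

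The libraries came from 3 RbpjΔEC mice (genotype Cre +/-; Rbpjf/f) and 3 Cre-negative littermates, CTRL (Cre -/-; Rbpjf/f), all males by the methods of the study. Mice of both groups carry the floxed Rbpj alleles on the same B6 background and received tamoxifen, 1.5 mg on 5 occasions, at 8 weeks of age. Organs were harvested 12 weeks later, while the labels give the age as 21 weeks. In RbpjΔEC the tamoxifen-dependent Cre is driven by the Cdh5 promoter, which is active in blood and lymphatic ECs alike, and removes the floxed part of Rbpj, the DNA-binding partner of the Notch receptors. ECs were taken as CD31-positive, CD45-negative cells by magnetic enrichment and flow sorting, and each library is 1 mouse.

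Sequencing depth on genes was between 39649171 and 47726850 counts per library, so that 3 counts, taken as the floor, were at most 0.0749 CPM (counts-per-million, on library sizes scaled by TMM). Rbpj itself had 28.1, 29.7 and 29.8 CPM in CTRL 1 to 3 and 28.9, 26.1 and 29.6 CPM in RbpjΔEC 1 to 3. Whole-gene counts do not single out the floxed part, and the group of each library rests on its label. Hey1, a Notch target, had 16.7, 19.9 and 22.6 CPM in CTRL 1 to 3 and 11.5, 8.92 and 14.6 CPM in RbpjΔEC 1 to 3, a log2 fold change of -0.76 (quasi-likelihood test of edgeR, Benjamini-Hochberg adjusted p = 0.0722). Jag1, a component of Notch signaling named here after its values were seen, had 116.5, 143.3 and 133.0 CPM in CTRL 1 to 3. In RbpjΔEC 1 to 3 it had 80.0, 89.2 and 101.5 CPM, a log2 fold change of -0.54 (adjusted p = 0.0368 from the same test). The study reports recombination at the Rbpj locus in these mice and lower Hey1 and Jag1 in their kidney ECs. Pan-endothelial genes were abundant in every library, with Cdh5 between 1456 and 1934 CPM, while the leukocyte gene Ptprc was between 0.535 and 3.92 CPM. The 14 endothelial markers summed to 22625 to 25359 CPM in CTRL and 20700 to 21935 CPM in RbpjΔEC. CTRL 1 had counts on 33764 genes, against 25629 to 26785 genes in the other libraries.

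Growth factor receptors on ECs, such as those for VEGF and FGF, switch on RAS and then the kinases RAF, MEK and ERK. Active ERK induces its own inhibitors, which end the signal in a negative feedback loop. The dual-specificity phosphatases (DUSPs) of the MAPK phosphatase class take the activating phosphates off ERK, JNK or p38, and Sprouty and Spred proteins act further upstream, between the receptor and RAF. Some of these genes, Dusp1 above all, are also immediate-early genes that many stimuli induce within minutes. In kidney ECs the feedback loop is part of the response to VEGF from podocytes and tubules.

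The 10 genes were expressed over a wide range in CTRL kidney ECs. Levels between genes were compared as CPM per kb of annotated exon. Dusp1 was the most abundant, with 194.1 ± 21.5 CPM per kb (SD, n = 3). Spry1 followed with 46.2 ± 4.57 (SD, n = 3) and Dusp6 with 40.4 ± 2.99 (SD, n = 3), and the libraries of this pair overlapped. Below them lay Dusp7 (31.7 ± 1.88), Spred1 (29.2 ± 3.51) and Spry4 (27.1 ± 2.26 CPM per kb, SD, n = 3 each), each overlapping its neighbour in this order. Spry2 stood alone at 18.2 ± 0.744 CPM per kb (SD, n = 3). Dusp5 at 3.94 ± 0.271 and Dusp4 at 3.81 ± 0.339 CPM per kb (SD, n = 3) could not be ordered, and Dusp2 was lowest with 0.702 ± 0.185 CPM per kb (SD, n = 3). The exon length of Dusp1 includes exons of a long transcript annotated far upstream, which makes its level per kb a low estimate.

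Dusp5 was about 2 times as high in RbpjΔEC as in CTRL, the largest fold change between group means among the 10 genes. Dusp5 encodes a nuclear phosphatase that is specific for ERK and also holds ERK in the nucleus. It lies on the forward strand of chromosome 19 of GRCm38 between 53529109 and 53542431 (ENSMUSG00000034765.6, 4 exons). Its level was 10.001, 10.3 and 8.998 CPM in CTRL 1 to 3 and 17.6, 20.9 and 20.6 CPM in RbpjΔEC 1 to 3, from 380 to 486 counts per library in CTRL and 790 to 875 in RbpjΔEC. All 3 RbpjΔEC libraries lay above all 3 CTRL libraries, with a gap between the groups wider than the spread within either. Mean levels were 9.76 ± 0.669 for CTRL against 19.7 ± 1.79 CPM for RbpjΔEC (SD, n = 3 each), which makes a factor of 2.02 or a log2 fold change (log2FC, RbpjΔEC over CTRL) of 1.01 with a standard error (SE) of 0.114. Ranked by log2FC from the highest, Dusp5 was number 456 of 18438 tested genes.

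The 250 bases before the RefSeq start of Dusp5 hold a pair of CArG boxes, the sites of serum response factor, directly next to each other. The stretch is shown because Dusp5 moved most. It is on the forward strand, chr19:53528895-53529108 of GRCm38.p6 from RefSeq, cut off where the exon annotated in GENCODE begins, and the capitals mark the CArG boxes.
Dusp5: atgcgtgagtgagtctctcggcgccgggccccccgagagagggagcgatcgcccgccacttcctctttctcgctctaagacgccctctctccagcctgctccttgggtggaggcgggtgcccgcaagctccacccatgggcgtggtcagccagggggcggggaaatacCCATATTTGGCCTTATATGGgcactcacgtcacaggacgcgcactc
The boxes start 82 and 72 bases before the RefSeq start. Of 32851 RefSeq promoter windows of this length, 482 (1.47%) hold at least 1 CArG box and 6 (0.0183%) hold 2 or more. Those 6 windows belong to 5 genes, of which Dusp5 and Srf, the gene of serum response factor itself, were tested here.

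Dusp1, Dusp2 and Dusp4 are the other nuclear, inducible phosphatases of the group. Dusp1 acts on p38 and JNK as well as ERK, Dusp2 on ERK and p38, and Dusp4 on ERK and JNK. Dusp1 (ENSMUSG00000024190.7, chromosome 17, 26505590 to 26562128) had 582.5, 721.3 and 624.1 CPM in CTRL 1 to 3 and 793.4, 798.3 and 738.3 CPM in RbpjΔEC 1 to 3. The groups did not overlap, but CTRL 2 came close to the lowest RbpjΔEC library, and the log2FC was 0.27 (SE 0.0863). Dusp4 (ENSMUSG00000031530.6, chromosome 8, 34807297 to 34819894) had 9.38, 11.03 and 10.9 CPM in CTRL 1 to 3 and 12.6, 18.9 and 14.3 CPM in RbpjΔEC 1 to 3. Here too the groups did not overlap, with RbpjΔEC 2 far above the rest, and the log2FC was 0.55 (SE 0.152), or 0.37 without RbpjΔEC 2. Dusp2 (ENSMUSG00000027368.6, chromosome 2, 127336159 to 127338376) had 1.10, 1.82 and 1.30 CPM in CTRL 1 to 3 and 2.03, 1.81 and 1.85 CPM in RbpjΔEC 1 to 3. CTRL 2 reached the level of the RbpjΔEC libraries, so that the groups overlapped, and with 44 to 91 counts per library its log2FC of 0.43 had the largest SE of the group, 0.288. Summed per kb, the 4 nuclear phosphatases came to 183.9, 226.9 and 196.8 CPM per kb in CTRL 1 to 3 and to 252.4, 257.4 and 237.4 CPM per kb in RbpjΔEC 1 to 3. Most of this sum was Dusp1.

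The promoter of Dusp1, shown as that of the most abundant member, holds CRE core letters (TGACGT, on either strand) at 2 places and no CArG box. The stretch is the reverse strand of chr17:26508520-26508722 of GRCm38.p6 from RefSeq, again without annotated exon, with the CRE core letters in capitals.
Dusp1: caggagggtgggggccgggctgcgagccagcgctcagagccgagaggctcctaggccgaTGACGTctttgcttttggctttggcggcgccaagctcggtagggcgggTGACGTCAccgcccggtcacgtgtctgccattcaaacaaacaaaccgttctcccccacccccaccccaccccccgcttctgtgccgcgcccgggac
At the second place the letters read as a core on both strands and the matches overlap. Of all windows, 6.47% hold this core, and Dusp5 also holds 1, 56 bases before its start.

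Dusp6 and Dusp7 are the cytoplasmic phosphatases specific for ERK, and both had a slightly negative log2FC. Dusp6 (ENSMUSG00000019960.8, chromosome 10, 99263231 to 99267489), the classical readout of ERK activity in many tissues, had 116.0, 129.0 and 134.2 CPM in CTRL 1 to 3 and 108.7, 105.8 and 133.5 CPM in RbpjΔEC 1 to 3. RbpjΔEC 1 and 2 were below every CTRL library while RbpjΔEC 3 was level with CTRL 3, and the log2FC was -0.12 (SE 0.0954). Dusp7 (ENSMUSG00000053716.9, chromosome 9, 106368632 to 106375724) had 113.5, 104.1 and 101.4 CPM in CTRL 1 to 3 and 100.6, 115.9 and 91.1 CPM in RbpjΔEC 1 to 3. The groups of Dusp7 lay across each other, and the log2FC of -0.05 (SE 0.0900) turned to 0.026 without RbpjΔEC 3.
The promoter of Dusp6, shown as that of the member with the lowest fold change, holds neither a CArG box nor the CRE core in its 250 bases before the start (forward strand, chr10:99262981-99263230, GRCm38.p6, RefSeq).
Dusp6: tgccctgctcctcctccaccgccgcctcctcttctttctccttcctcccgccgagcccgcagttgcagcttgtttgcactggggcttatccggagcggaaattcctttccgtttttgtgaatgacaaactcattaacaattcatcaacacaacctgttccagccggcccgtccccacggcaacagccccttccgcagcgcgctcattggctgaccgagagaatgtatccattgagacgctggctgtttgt

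The ratio of Dusp5 to Dusp6, the members with the highest and the lowest log2FC, did not overlap between the groups. Taken per kb it was 0.109, 0.101 and 0.0849 for CTRL 1 to 3 against 0.205, 0.250 and 0.195 for RbpjΔEC 1 to 3. The ratio of Dusp5 to Dusp1, which is nuclear too, did not overlap either. It was 0.0230, 0.0191 and 0.0193 for CTRL 1 to 3 against 0.0297, 0.0350 and 0.0373 for RbpjΔEC 1 to 3. Both ratios hold the Dusp5 values by which the members were chosen, so they are a description. Of the summed CPM per kb of the 6 MAPK phosphatases, Dusp5 made up 1.44 ± 0.128% in CTRL against 2.51 ± 0.239% in RbpjΔEC (SD, n = 3). Dusp6 made up 14.7 ± 1.07% against 11.7 ± 1.88% (SD, n = 3), with RbpjΔEC 3 inside the range of CTRL. Dusp1 was the main phosphatase transcript in both groups, with 70.6 ± 1.99% in CTRL against 74.1 ± 1.50% in RbpjΔEC (SD, n = 3).

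The Sprouty genes and Spred1 had log2FC values between -0.11 and 0.24. Sprouty proteins dampen RAS-ERK signaling below receptor tyrosine kinases, and Spred1 brings the RAS inhibitor neurofibromin to the membrane. Spry1 (ENSMUSG00000037211.12, chromosome 3, 37639947 to 37644598) had 118.9, 142.9 and 140.9 CPM in CTRL 1 to 3 and 147.2, 166.9 and 144.1 CPM in RbpjΔEC 1 to 3, and its log2FC was 0.19 (SE 0.0874). Its groups did not overlap, although CTRL 2 and RbpjΔEC 3 were nearly level. Spry4 (ENSMUSG00000024427.7) had 136.8, 133.0 and 116.6 CPM in CTRL 1 to 3 and 130.5, 170.6 and 153.6 CPM in RbpjΔEC 1 to 3. RbpjΔEC 1 lay inside the CTRL range of Spry4, and the log2FC was 0.24 (SE 0.0998). Spred1 (ENSMUSG00000027351.14, chromosome 2, 117121374 to 117182279) had 222.0, 198.5 and 174.3 CPM in CTRL 1 to 3 and 206.3, 234.2 and 230.4 CPM in RbpjΔEC 1 to 3, again with RbpjΔEC 1 among the CTRL libraries and a log2FC of 0.17 (SE 0.0911). Spry2 (ENSMUSG00000022114.5, chromosome 14, 105891947 to 105896819), also a common readout of ERK output, had 38.7, 36.1 and 38.9 CPM in CTRL 1 to 3 and 35.3, 31.8 and 38.5 CPM in RbpjΔEC 1 to 3. Its log2FC was -0.11 (SE 0.0896), with RbpjΔEC 3 at the level of CTRL.

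**Figure D1:**
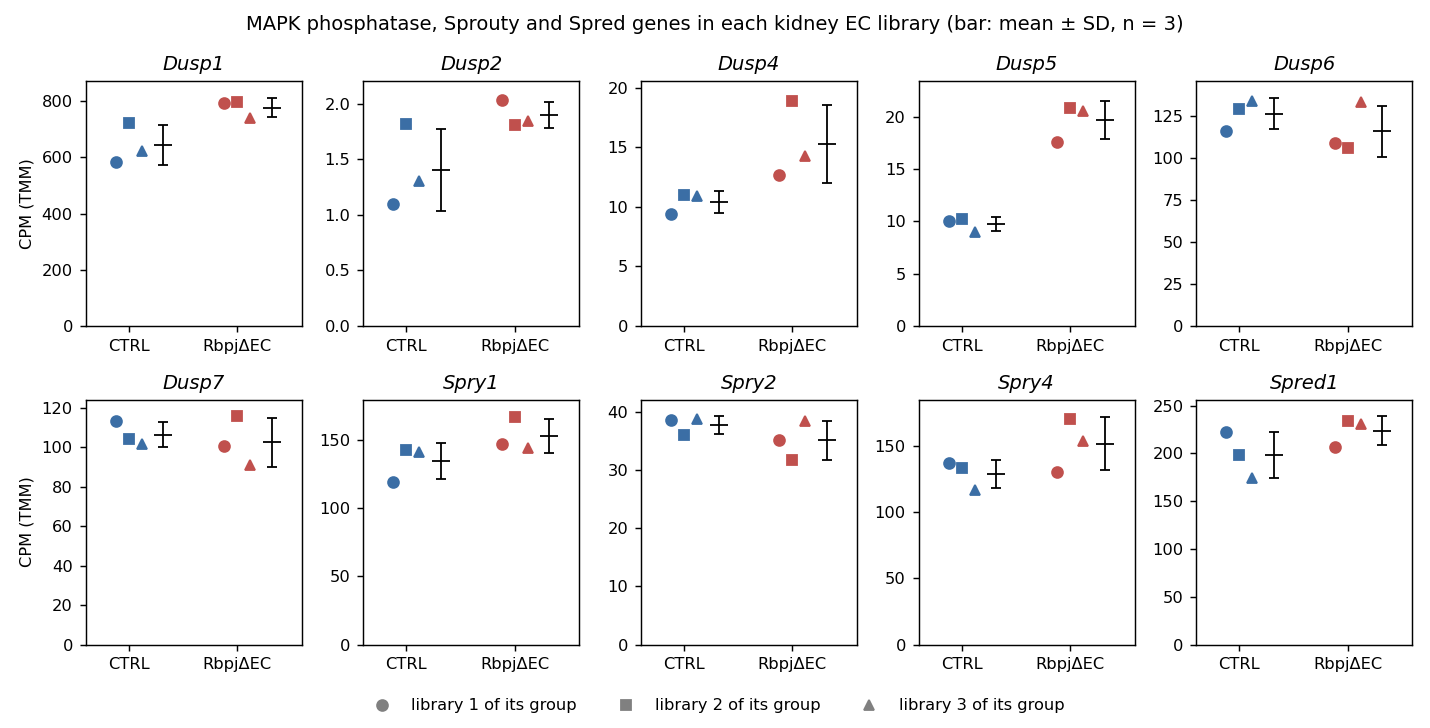
Normalized level in CPM (vertical axis, from 0) of each of the 10 genes in the 3 CTRL (blue) and 3 RbpjΔEC (red) libraries, 1 point per library and marker shape by library number, with the mean ± SD beside each group. Dusp5 shows the widest gap relative to its level, from at most 10.3 CPM in CTRL to at least 17.6 CPM in RbpjΔEC, while the groups of Dusp6, Dusp7, Spry2, Spry4, Spred1 and Dusp2 overlap.

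Of the 10 genes, 7 had a positive log2FC, as did 51.1% of all tested genes, and their median was 0.21, against 0.01 over all tested genes. At an adjusted p under 0.05 over all tested genes in edgeR's quasi-likelihood test, 1 member (Dusp5) was higher in RbpjΔEC, where 0.575% of all tested genes were higher, and 0 were lower, where 0.559% of all tested genes were lower. After adjustment, limma-voom and DESeq2 likewise called Dusp5 alone (DESeq2 on all genes with counts, while on the filtered genes it called Dusp4 too). At an unadjusted p under 0.05 in edgeR the counts were 4 higher (Dusp1, Dusp4, Dusp5 and Spry4) and 0 lower, beside 8.88% and 8.62% of all tested genes. In 4 members, Dusp1, Dusp4, Dusp5 and Spry1, all RbpjΔEC libraries were above all CTRL libraries, which held for 11.4% of the tested genes. Because fold changes in this same contrast chose the members, nothing is read from these counts. Among all tested genes 106 were higher and 103 lower, a split that became 159 and 82 with scaling to library size alone.

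The level of Dusp5 against the rest was also taken within each library. The log2 CPM of Dusp5 minus the mean log2 CPM of the other 9 genes was -2.60, -2.70 and -2.78 for CTRL 1 to 3 against -1.95, -1.84 and -1.79 for RbpjΔEC 1 to 3. The difference between the group means was 0.83 on the log2 scale, where the SD within a group was at most 0.0916 (n = 3). The other 9 genes had log2FC values between -0.12 (Dusp6) and 0.55 (Dusp4), with a median of 0.19. Their median against the CTRL mean was 0.06 in RbpjΔEC 1, 0.32 in RbpjΔEC 2 and 0.21 in RbpjΔEC 3. RbpjΔEC 2 held the highest RbpjΔEC value in 7 of the 10 genes and the lowest in Dusp2, Dusp6 and Spry2. Among CTRL, Dusp6 and Spry2 were highest in CTRL 3, while Dusp1, Dusp2, Dusp4, Dusp5 and Spry1 were highest in CTRL 2. For 8 of the 10 genes the SD within groups was larger than the median SD of tested genes nearest to them in level, with Dusp2 and Dusp5 as the exceptions.

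**Figure D2:**
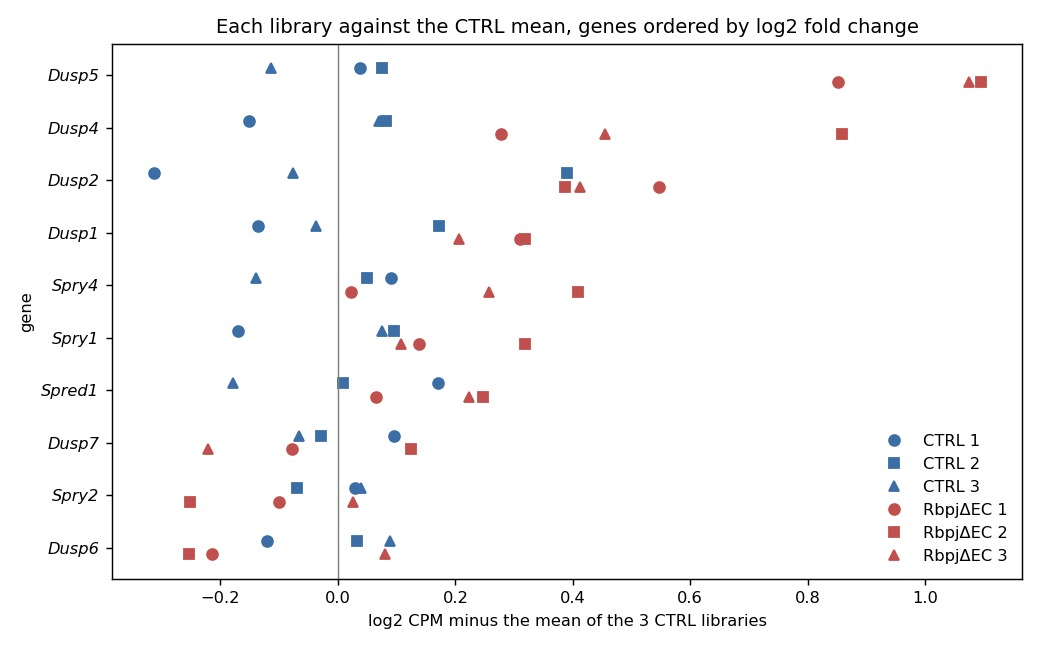
Log2 CPM of each library minus the mean of the 3 CTRL libraries (horizontal axis) for the 10 genes, ordered by their log2FC, with CTRL in blue and RbpjΔEC in red. The RbpjΔEC libraries of Dusp5 lie at 0.85 to 1.10, those of Dusp4 are spread from 0.28 to 0.86, and RbpjΔEC 2 changes sides between the top and the bottom of the plot.

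Genes of the wider MAPK pathway were taken from 7 lists, which hold 133 genes besides the members. Of these, 124 were tested with edgeR's quasi-likelihood test, and 5 were higher and 2 lower in RbpjΔEC at an adjusted p under 0.05, against 1.13% of all tested genes in either direction. Their median log2FC was 0.00 (63 positive and 61 negative). In the 4 remaining MAPK phosphatases of the class (Dusp8, Dusp9, Dusp10 and Dusp16) 0 passed, with 1 higher and 1 lower if p is left unadjusted and 0 called by DESeq2 or limma-voom. Dusp10, which acts on JNK and p38, had mean levels of 3.22 ± 0.270 against 4.58 ± 0.553 CPM (CTRL against RbpjΔEC, SD, n = 3), a log2FC of 0.51 (adjusted p = 0.208 from edgeR). Dusp16, a phosphatase for JNK, had a log2FC of -0.15 (adjusted p = 0.273 from edgeR), and Dusp9 had -0.73 with group means of 0.569 and 0.340 CPM (adjusted p = 0.555 from edgeR). Of 10 tested atypical DUSPs, which lack the MAPK-binding domain, 9 had a negative log2FC, with a median of -0.16. None passed in edgeR, DESeq2 or limma-voom (0 higher and 1 lower before adjustment in edgeR). The 3 with the smallest p were Dusp3 (-0.25, adjusted p = 0.128), Dusp26 (-0.31, adjusted p = 0.296) and Dusp19 (-0.34, adjusted p = 0.450 from edgeR), given as log2FC values.

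Among the RAS-ERK genes that carry the signal, DESeq2 called Mapk3 lower (on the filtered genes also Rps6ka3 lower and Mknk2 higher), while after adjustment 0 of the 29 passed in edgeR or limma-voom. Without adjustment 6 had a p under 0.05 in edgeR with higher levels and 5 with lower levels. Mapk3, the gene of ERK1, had 164.2, 158.2 and 188.7 CPM in CTRL 1 to 3 and 136.8, 137.7 and 134.1 CPM in RbpjΔEC 1 to 3. The groups of Mapk3 did not overlap, with a log2FC of -0.32 (SE 0.0764, adjusted p = 0.0664 from edgeR). The ERK-activated kinase gene Rps6ka3 had -0.25 (adjusted p = 0.0998) and Mknk2, whose product phosphorylates the translation factor eIF4E, had 0.34 (adjusted p = 0.117 from edgeR). Of 17 other inhibitors of RAS-ERK signaling, 0 passed in edgeR, DESeq2 or limma-voom, with 1 higher and 2 lower where p was not adjusted. Among them were Pebp1, a RAF inhibitor (log2FC -0.43, adjusted p = 0.192), Il17rd, also known as Sef (-0.25, adjusted p = 0.194), and the RAS GTPase-activating gene Rasa2 (0.24, adjusted p = 0.225 from edgeR). Of 23 genes of the p38, JNK and ERK5 kinase cascades, 0 passed in edgeR, DESeq2 or limma-voom, with 5 higher and 0 lower before adjustment. The smallest p were those of Map3k1 (0.25, adjusted p = 0.167), Mapkapk5 (0.48, adjusted p = 0.172) and Mapk12 (0.22, adjusted p = 0.178 from edgeR).

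Genes that respond to ERK, together with the factors that act on them, held all 5 of the rises. Of 22 tested genes 19 had a positive log2FC, with a median of 0.27, and Egr1, Phlda1, Egr3, Fos and Junb passed in edgeR, while DESeq2 called 8 higher and limma-voom the same number as edgeR. Egr3, an immediate-early zinc finger factor downstream of VEGF, had 10.5, 17.1 and 10.96 CPM in CTRL 1 to 3 and 25.7, 26.4 and 25.1 CPM in RbpjΔEC 1 to 3, a log2FC of 1.00 (adjusted p = 0.0326 from edgeR) that was close in size to that of Dusp5. Phlda1, which belongs to the transcripts used to score MAPK activity in tumours, had 61.5, 59.7 and 61.7 CPM in CTRL 1 to 3 and 86.0, 97.4 and 79.2 CPM in RbpjΔEC 1 to 3. Its log2FC was 0.52 (adjusted p = 0.0154 from edgeR). Egr1 rose by 0.66 (adjusted p = 0.00649), Fos by 0.46 (adjusted p = 0.0398) and Junb by 0.51 on the log2 scale (adjusted p = 0.0430 from edgeR). Without 1 library in turn Egr1 passed in 5 of 6 fits (not without CTRL 3), and each of the other 4 genes passed in 2 of 6, not without CTRL 1, CTRL 3, RbpjΔEC 1 or RbpjΔEC 2, with adjusted p up to 0.184 in edgeR. Srf, whose promoter window also holds at least 2 CArG boxes, had 48.7, 48.9 and 45.0 CPM in CTRL 1 to 3 and 60.1, 62.8 and 56.8 CPM in RbpjΔEC 1 to 3, a log2FC of 0.33 (adjusted p = 0.0600 from edgeR).
The MAPK activity score also holds Dusp4, whose log2FC of 0.55 was close to that of Phlda1, and Dusp6, Spry2 and Spry4, which were between -0.12 and 0.24. Its other genes are named here after their values were seen. Etv5 had mean levels of 10.2 ± 0.558 against 10.4 ± 0.858 CPM (CTRL against RbpjΔEC, SD, n = 3). The log2FC was 0.03 for Etv5, 0.13 for Epha2, -0.12 for Epha4 and -0.29 for Ccnd1, the gene of cyclin D1, with adjusted p between 0.212 and 0.917 in edgeR's quasi-likelihood test, and Etv4 was below the filter on low counts.

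At the top of the pathway, the receptor genes Met and Pdgfra fell. Of 20 growth factor receptors and co-receptors, 0 were higher and 2 lower in edgeR, and 8 were lower and 0 higher where p was not adjusted. Their median log2FC was -0.15. The counts were 7 lower (8 on the filtered genes) and 0 higher in DESeq2 and the same in limma-voom as in edgeR. Beside Met and Pdgfra, DESeq2 called Kdr, Flt1, Nrp1, Fgfr2 and Pdgfrb lower, and on the filtered genes Fgfr3 too. The VEGF receptors are described here after their values were seen. Kdr had mean levels of 5994 ± 308 against 4960 ± 44.3 CPM (CTRL against RbpjΔEC, SD, n = 3) with no overlap and a log2FC of -0.27 (adjusted p = 0.106 from edgeR), and Flt1 and the co-receptor Nrp1 had -0.24 (adjusted p = 0.137) and -0.35 (adjusted p = 0.0975 from edgeR). Met, the receptor of hepatocyte growth factor, had 22.4, 20.5 and 22.6 CPM in CTRL 1 to 3 and 16.2, 12.8 and 13.8 CPM in RbpjΔEC 1 to 3 (log2FC -0.62, adjusted p = 0.0273 from edgeR). Pdgfra, a receptor of fibroblasts, had mean levels of 3.46 ± 0.609 against 1.09 ± 0.573 CPM (CTRL against RbpjΔEC, SD, n = 3, log2FC -1.67, adjusted p = 0.0468 from edgeR). Fgfr2 had a log2FC of -1.10 (adjusted p = 0.0820 from edgeR). Met and Pdgfra each passed in 2 of the 6 fits that left out 1 library, not without CTRL 1, CTRL 3, RbpjΔEC 1 or RbpjΔEC 2 (adjusted p up to 0.121 and 0.186 in edgeR).

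**Figure D3:**
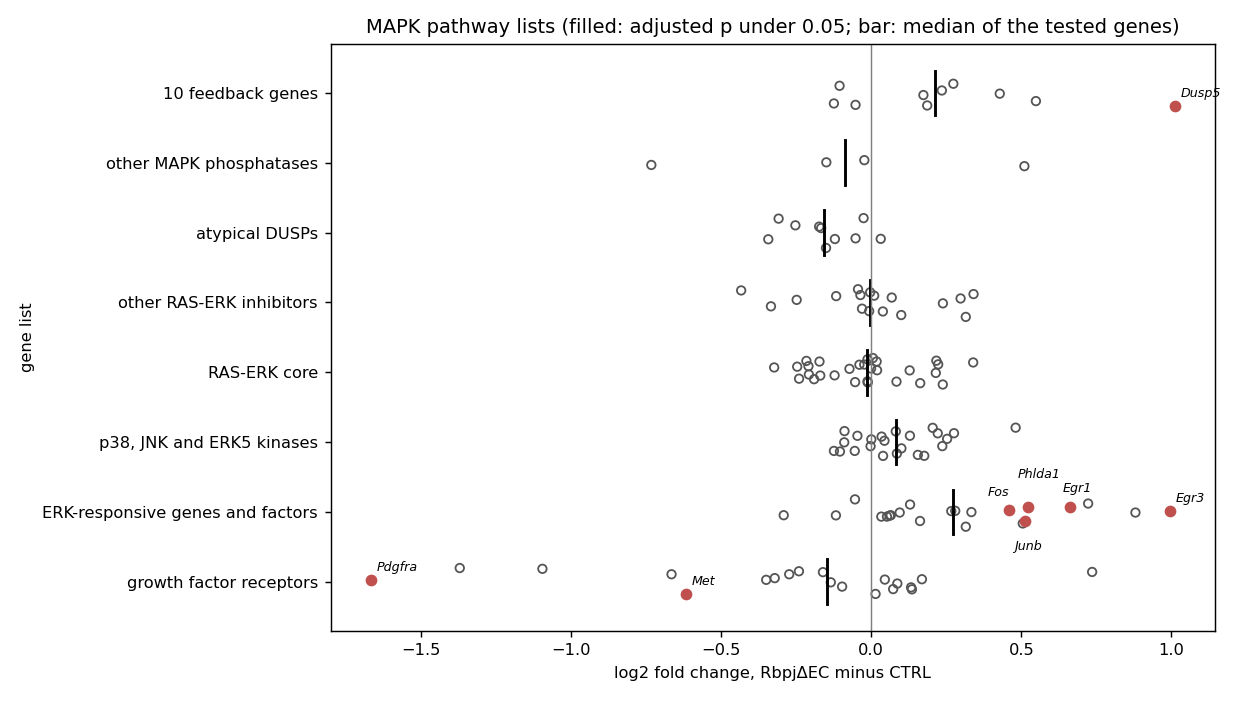
Log2 fold change between RbpjΔEC and CTRL (horizontal axis) of every tested gene in the 10 feedback genes and 7 MAPK pathway lists (vertical axis), with filled red points for an adjusted p under 0.05 in edgeR and a black bar at each median. Apart from Dusp5, the filled points are 5 ERK-responsive genes on the right and the receptors Met and Pdgfra on the left.

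Genes that respond to dissociation and stress, and markers of other cell types, moved in the same libraries. Of 24 genes that respond to tissue dissociation and stress, among them Egr1, Fos, Junb, Atf3 and Hspa1a, 21 had a positive log2FC, with a median of 0.52, and 7 were higher in edgeR. They summed to 9683, 11705 and 9685 CPM in CTRL 1 to 3 and to 13841, 15362 and 13142 CPM in RbpjΔEC 1 to 3. CTRL 2 and RbpjΔEC 2 were highest in their groups, as was the case for Dusp1, Dusp4, Dusp5 and Spry1 but not for the other members. Dusp1 is often counted among such genes. Egr1, Fos and Junb are also among the ERK-responsive genes above, and what induced them was not tested. The 10 mural genes summed to 87.7 to 114.2 CPM in CTRL and 36.2 to 58.4 CPM in RbpjΔEC, and the 5 stroma genes, Pdgfra included, to 4.16 to 6.41 and 1.24 to 2.57 CPM. The 10 tubule genes summed to 325.5 to 471.8 CPM in CTRL and to 190.6, 139.6 and 494.8 CPM in RbpjΔEC 1 to 3, so that the overlap came from RbpjΔEC 3 alone. That library stood apart in proximal tubule genes, with 129.2 CPM of Lrp2 against 40.4 CPM or less elsewhere. Umod, Slc12a1 and Aqp2 were below CTRL in all 3 RbpjΔEC libraries. Slc12a3 and Fxyd2 overlapped CTRL through RbpjΔEC 3, with 64.4 and 32.9 CPM there against 62.5 and 30.3 CPM in CTRL 3. Without RbpjΔEC 3 the log2FC of Dusp5 was 0.98. The 5 podocyte genes summed to 223.6 to 245.8 and 251.1 to 270.7 CPM. The 10 macrophage genes summed to 19.4 to 28.0 and 26.2 to 32.7 CPM, but 6 of the 7 tested ones had a negative log2FC, with a median of -1.25, and the higher sum was that of Cd68 (9.97 and 24.05 CPM). In edgeR Cd68 was higher and Mrc1 lower in RbpjΔEC, and of the defining genes Adgre1 was at 0.424 CPM or less and Csf1r at 3.84 CPM or less. The 7 lymphocyte genes summed to less than 1 CPM in every library, with 2 of them at 0 throughout. The part of these differences in the values of Dusp5 and the other feedback genes was not tested, and in bulk RNA a change in the share of cells cannot be told apart from a change in RNA per cell.

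Around Dusp5, 9 other tested genes have an edge within 300 kb. Their log2FC were between -0.94 (Rbm20) and 1.05 (AC137853.1), with adjusted p between 0.187 and 0.869 in edgeR. The noncoding AC133451.1 and Gm16299 had 0.60 and -0.55. The nearest protein-coding genes were Smndc1 on the upstream side (40.1 CPM in CTRL and 41.0 CPM in RbpjΔEC, log2FC 0.03) and Smc3 downstream (166.0 and 156.5 CPM, log2FC -0.08). An antisense RNA, AC137853.2, overlaps the first exon of Dusp5 and had 0.933 CPM in CTRL and 1.51 CPM in RbpjΔEC (log2FC 0.69, SE 0.348, adjusted p = 0.331 from edgeR). The library kit keeps the strand, but whether the counting used it is not given in the sources used here, so that reads of the overlap may belong to either gene. Over all libraries AC137853.2 had 315 counts.

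**Figure D4:**
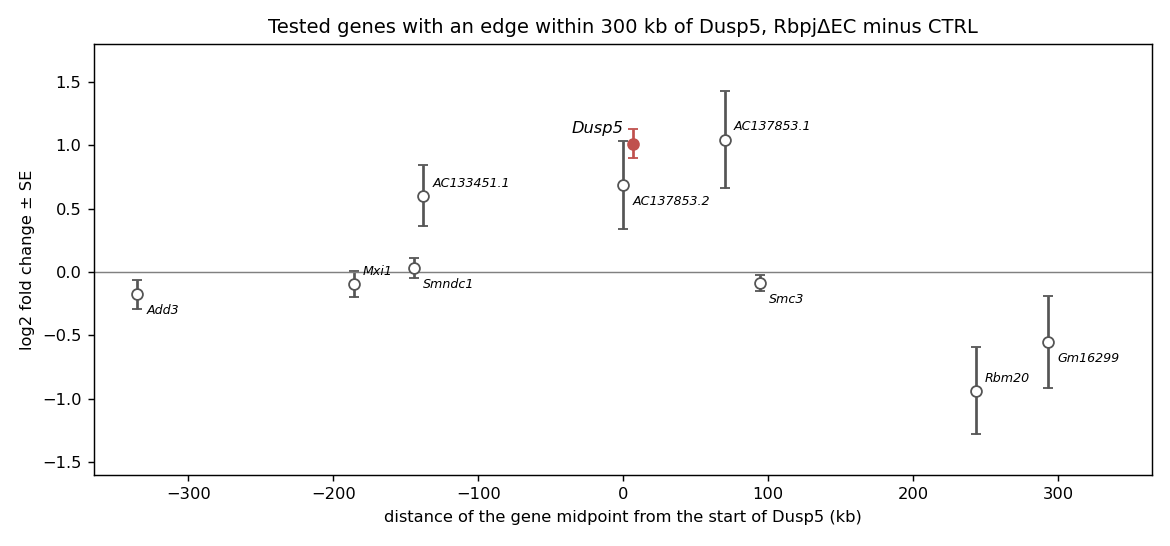
Log2 fold change ± SE (vertical axis) of Dusp5 (red) and the 9 tested genes with an edge within 300 kb of it (open points), by the distance of each gene's midpoint from the start of Dusp5 in kb. The protein-coding genes Smndc1, Mxi1, Add3 and Smc3 lie between -0.18 and 0.03 and Rbm20, also protein-coding, at -0.94, while AC137853.2 and AC137853.1, both with wide error bars, lie at 0.69 and 1.05.

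Dusp1, Dusp2, Dusp6, Spry1 and Spred1 each had a tested downstream neighbour on the same strand within 10 kb. In these 5 pairs the neighbour had the higher log2FC, but none of the neighbours passed in edgeR. How often such a neighbour is higher over all tested genes was not computed, so nothing is read from these pairs. AC122252.2, a long noncoding RNA 2.39 kb beyond Dusp1, had 17.8 CPM in CTRL and 38.6 CPM in RbpjΔEC (log2FC 1.11, SE 0.234, adjusted p = 0.0859 from edgeR). Gm43820, which begins 0.009 kb after the end of Spry1, had 9.11 and 13.5 CPM (log2FC 0.57, adjusted p = 0.0798 from edgeR). Astl, 0.263 kb beyond Dusp2, had 82 counts in all and a log2FC of 1.85 (adjusted p = 0.136 from edgeR). Gm48089 beyond Dusp6 (log2FC 0.40, adjusted p = 0.629) and Mir674 beyond Spred1 (0.45, adjusted p = 0.796 from edgeR) were at under 1 CPM in both groups. Of the tested opposite-strand neighbours within 10 kb, Ergic1 (-0.12, adjusted p = 0.590) at Dusp1, Tnks (-0.09, adjusted p = 0.511) at Dusp4 and Gm42922 (-0.02, adjusted p = 0.989 from edgeR) at Spry1 had a lower log2FC than the member. So had AC137853.2 at Dusp5 (0.69, adjusted p = 0.331 from edgeR). Gm34921 at Dusp6 (0.22, adjusted p = 0.916) and AC133601.1 at Spry4 (0.35, adjusted p = 0.737 from edgeR), both at under 1 CPM, had a higher one. The other genes within 10 kb, AC122252.1, AC122252.4 and Gm8225 at Dusp1 and AC151580.1, Gm27369 and Gm27804 at Spry4, were below the filter on low counts.

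The 5 tested genes, with a mean of at least 5 CPM over all 6 libraries, whose levels followed those of Dusp5 most closely over the 6 libraries were E030022I16Rik, Tmem230, Nfkbid, Gm44292 and Gm49774, by the root mean square distance between centred log2 CPM values (0.0956 to 0.121, over 10441 genes). Tmem230, a vesicle membrane protein gene, had 11.9, 13.4 and 12.4 CPM in CTRL 1 to 3 and 21.2, 23.4 and 24.2 CPM in RbpjΔEC 1 to 3. Nfkbid, which encodes a nuclear regulator of NF-kB, had 5.16, 6.51 and 5.35 CPM in CTRL 1 to 3 and 11.1, 10.8 and 12.0 CPM in RbpjΔEC 1 to 3. The other 3 are poorly characterized transcripts with log2FC values of 0.87 (E030022I16Rik), 1.14 (Gm44292) and 1.12 (Gm49774). Gm44292 reached that mean through RbpjΔEC, with group means of 3.63 CPM in CTRL and 8.03 CPM in RbpjΔEC. These genes were picked for this likeness, so that their differences between the groups are a description.

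Promoter windows were found for 8 of the 10 members, and Dusp4 and Spry4 were not among them. The core letters of the RBPJ site (GTGGGAA, on either strand) were in 0 of these 8 windows of 250 bases and in 5.42% of all windows, and the AP-1 letters (TGANTCA) in 0 of 8 and in 6.75% of all windows. CArG boxes were in the window of Dusp5 alone and the CRE core in those of Dusp1 and Dusp5. The ETS core (GGAA, on either strand) was in 6 of 8 windows, at 6 places in Dusp6, where 93.4% of all windows hold it. These matches describe letters in short windows and say nothing of binding in kidney ECs.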

How the data were processed

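RNA of sorted kidney ECs was sequenced by the authors in 1 common run, processed with nf-core/rnaseq (Trim Galore 0.6.4, STAR 2.6.1d, featureCounts of Subread 1.6.4, per the labels) on GRCm38.p6 with GENCODE M25, and deposited as whole-number counts per gene, without normalization. Groups and library numbers were taken from the sample titles. Columns were matched through the library code in the sample descriptions.

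In R 4.3.3, edgeR 4.0.16 was run on the 18438 genes kept by filterByExpr (TMM factors, glmQLFit with robust estimation, glmQLFTest, Benjamini-Hochberg adjustment over all of them, threshold 0.05, two-sided). The SE of a log2FC was computed as its size divided by the root of F. Log2 CPM used a prior count of 2. DESeq2 1.42.0 (no independent or outlier filtering, as in the study, on the 38324 genes with a p, and on the 18438 filtered genes as an alternative chosen after seeing the data) and limma-voom (limma 3.58.1) were alternatives. Positions and exon lengths came from GENCODE M21 on GRCm38, which has 55141 of the 55401 listed genes, and promoters from RefSeq on GRCm38.p6. The releases differ, so single positions can differ.

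The members, gene lists and motifs were chosen with earlier results of these data known, and no p is given for a list. Named were all members; in each pathway list the genes past the threshold or, where fewer than 3 passed, those of smallest p up to 3; the 5 genes closest to Dusp5; genes within 10 kb of a member and tested genes within 300 kb of Dusp5. Nothing states that same-numbered libraries share a litter or day. Depth was 39649171 to 47726850 counts per library.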

Additional observations from a re-analysis of the deposited data

How the results depend on the processing

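The log2 fold change of Dusp5 was between 0.95 and 1.09 in 15 fits and past the threshold in each, while Dusp2, Dusp4, Dusp1, Spry1, Spry4 and Spred1 remained positive and Dusp6 and Spry2 negative in all 15. Dusp7 ran from -0.15 (without RbpjΔEC 2) to 0.026 (without RbpjΔEC 3), against -0.05 with every library. When 1 library was left out, the log2FC of Dusp6 ran from -0.24 to -0.06 and that of Spry2 from -0.17 to -0.04. Dusp2 ran from 0.28 to 0.65, Dusp4 from 0.37 to 0.67 and Dusp1 from 0.20 to 0.36. Spry1 ran from 0.10 to 0.23, Spry4 from 0.14 to 0.33 and Spred1 from 0.09 to 0.26. Dusp1 passed without CTRL 2, Dusp1 and Dusp4 passed with no low-count filter, and Dusp4 with DESeq2 on the filtered genes, an alternative chosen after seeing the data. Members called higher were 1 in most fits, 3 with no low-count filter, 2 with DESeq2 on the filtered genes and 1 to 2 when 1 library was left out, and 0 were called lower in any fit. Genes called in all were 209, against 1436 with no low-count filter, 584 with DESeq2 run without that filter, 944 with DESeq2 on the filtered genes, and 21 (without RbpjΔEC 1) to 700 (without CTRL 2) when 1 library was left out. The other MAPK pathway genes called were 7, against 23 with no low-count filter, 16 and 19 with DESeq2 without and with the filter, and 0 (without CTRL 3) to 13 (without RbpjΔEC 3) when 1 library was left out. The cause of these differences was not tested. The median of the other 9 members was 0.14 to 0.23 and the excess of Dusp5 over them 0.79 to 0.88 when 1 library was left out.

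With the replicate number as a block (replicate block), 344 genes and 11 of the other MAPK pathway genes were called, and Dusp5 was again the 1 member called. Same-numbered libraries had deviations from their group means that correlated at 0.0054 to 0.023 over the tested genes, and none was the best match of its own number. With 3 libraries per group these values cannot show whether same-numbered libraries share a litter or day. Counting depth limits Dusp2 most, with 44 to 91 counts per library.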
